A study of Homo sapiens with 4 samples.

Results

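SVA retroposons are composite mobile elements of apes and humans, and 697 of the 68937 peaks in a PML ChIP-seq peak list from MDA-MB-231 cells were named as SVA (1.01%, exact 95% interval 0.938 to 1.09%). A peak was taken as an SVA peak when the detailed annotation deposited with it had 3 parts, of which the first was an SVA name, and the name gave the subfamily, A to F. PML is the scaffold protein of PML nuclear bodies, and MDA-MB-231 is an established cell line of human triple-negative breast cancer. The cells were cross-linked, PML was immunoprecipitated with an antibody, and the labels name no treatment. The labels name 2 PML ChIP libraries and, as the reference for peak calling, 2 input libraries of the same cells. The authors merged the duplicates, so the list carries no replicate error and no read depth, and every interval covers counting error within 1 list only. Peaks of that list are not replicates of a condition, so no test between groups of peaks was run and the values are set side by side. Coordinates are hg38.

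An SVA element joins a run of CCCTCT hexamers, an Alu-like stretch, a GC-rich tandem repeat (the VNTR) and a part called SINE-R that derives from a HERV-K endogenous retrovirus. SVA elements do not encode proteins and are copied by the machinery of L1 elements. The subfamilies are named in order of age from A, the oldest, to E and F, which are found in humans only, and D is known as the most numerous. In most human cells SVA copies are held silent by KRAB zinc-finger proteins such as ZNF91, which bring the corepressor TRIM28 and histone methylation, and by DNA methylation.

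SVA_D made up the greatest part of the SVA peaks. It held 313 of the 697 peaks (44.9%, interval 41.2 to 48.7%). SVA_B held 125 (17.9%), SVA_C 90 (12.9%), SVA_A 75 (10.8%), SVA_F 70 and SVA_E 24 (3.44%, interval 2.22 to 5.08%). All 6 subfamilies were therefore present, from the oldest to the human-specific ones. How many genomic copies of each subfamily lacked a peak was not computed, so a larger number of peaks does not show that a larger share of the copies had one.

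The repeats could be named for only 2 of the annotation classes. All 17097 repeat-named peaks of the list were in the intron or intergenic class, since promoter, exon, UTR and gene end peaks keep those names in the detailed annotation. SVA sequence under a promoter or exon peak is therefore not counted here, nor is any under an intron or intergenic peak whose detailed annotation gave another name. Among the 51386 intron and intergenic peaks the SVA share was 1.36% (interval 1.26 to 1.46%), and among the repeat-named peaks it was 4.08% (interval 3.79 to 4.38%). These peaks, rather than the whole list, are the fairer ground for comparison. SVA peaks are also set beside 1100 peaks of LTR12, a family of endogenous retroviral promoters, 1940 of young L1 elements, those named L1HS or L1PA with a number, and 1154 of Alu elements.

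**Figure D1:**
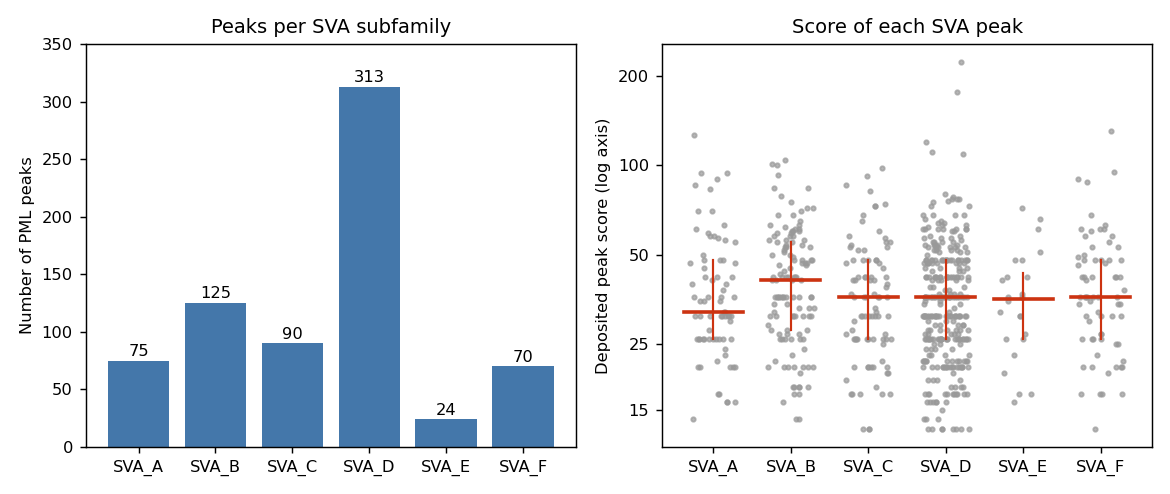
Left, number of PML peaks in each SVA subfamily (bars). Right, deposited peak score on a log axis, 1 point per peak, with the median (horizontal red line) and the quartiles (vertical red line). SVA_D holds 313 peaks, and the medians of the 6 subfamilies lie between 32 and 41.

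SVA peaks had scores a little above those of other peaks outside promoters and exons, and few had high scores. The peak score is the authors' own value, a whole number whose scale the file headers do not state. It ran from 13, the lowest of the whole list, to 222 in SVA peaks, with quartiles of 26, 36 and 48. The median was 36 in SVA peaks (interval 34 to 36) and 31 in the other 50689 intron and intergenic peaks. A score of 100 or more was reached by 10 SVA peaks (1.43%), against 6.58% of all peaks, 3.08% of the other intron and intergenic peaks and 1.27% of the other repeat-named peaks. A score at or above the upper quartile of the whole list, 49, was reached by 162 SVA peaks (23.2%, interval 20.2 to 26.6%). The background for this was 25.5% of all peaks, 18.8% of the other intron and intergenic peaks and 13.2% of the other repeat-named peaks. SVA peaks thus reached that score about as often as the whole list did, and their interval lay above the other intron and intergenic peaks and the other repeats.

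The SVA share of intron and intergenic peaks was higher among higher scores, but not at the top. It was 1.08% at scores of 13 to 22 (133 of 12311), 1.12% at 23 to 30 (115 of 10309), 1.38% at 31 to 43 (218 of 15797) and 1.78% at 44 or more (231 of 12969, interval 1.56 to 2.02%). Among the 5190 intron and intergenic peaks with a score of 63 or more, 66 were SVA peaks (1.27%, interval 0.985 to 1.62%). This was near the 1.36% over all scores. Among the 1003 with a score of 121 or more, 4 were SVA peaks (0.399%, interval 0.109 to 1.02%). SVA peaks therefore filled the upper middle of the score range more than its end.

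The median scores of the subfamilies lay close together, while SVA_B had the largest share of peaks in the upper score quartile. The median score was 32 in SVA_A (interval 31 to 40), 41 in SVA_B (36 to 45), 36 in SVA_C (31 to 41), 36 in SVA_D (31 to 36), 35.5 in SVA_E (26 to 42) and 36 in SVA_F (32 to 42). SVA_B had the highest median, and its interval met those of the other subfamilies. SVA_A had the lowest, and the human-specific SVA_E and SVA_F lay between. The upper score quartile held 42 of 125 SVA_B peaks (33.6%, interval 25.4 to 42.6%), 63 of 313 SVA_D peaks (20.1%, interval 15.8 to 25%) and 4 of 24 SVA_E peaks (16.7%, interval 4.74 to 37.4%). It held 22.7% of SVA_A, 21.1% of SVA_C and 24.3% of SVA_F peaks, and their intervals met that of SVA_B. In the upper quartile the intervals of SVA_B and SVA_D did not overlap, and this pair was picked out after the values were seen. The 90th percentile of score was reached by 8% of SVA_A, 5.71% of SVA_F and 4.8% of SVA_B peaks. The lead of SVA_B thus did not hold there.

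**Figure D2:**
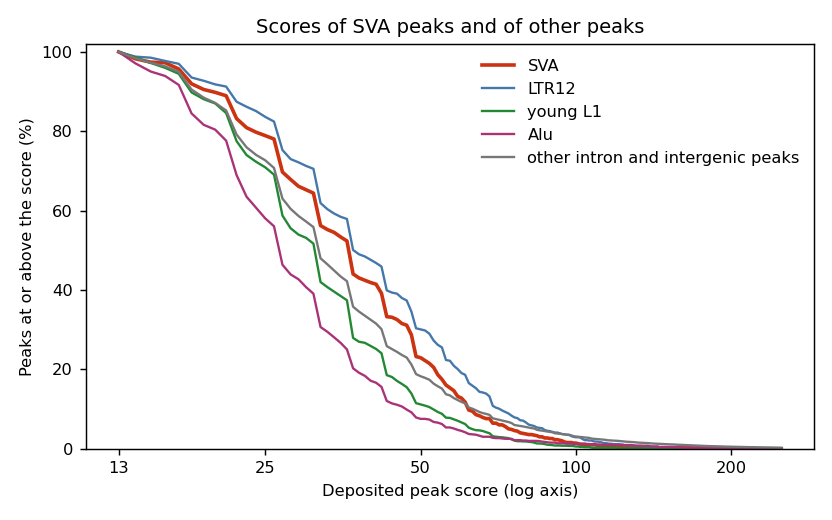
Share of peaks (%) at or above each deposited score (log axis) for SVA peaks, LTR12, young L1 and Alu peaks, and all other intron and intergenic peaks. The SVA line runs between LTR12 and the others up to a score of about 60; 23.2% of SVA peaks reach 49.

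The SVA peak with the highest score lay inside BORCS5, which encodes a subunit of the BORC complex that positions lysosomes. This SVA_D peak, on chromosome 12 from 12414739 to 12415438 in intron 2, had rank 611 of the whole list with its score of 222. The next, an SVA_D peak between genes on chromosome 1 from 161421991 to 161423316, had a score of 176 and lay 54770 bp from the TSS of CFAP126, a cilium gene. An SVA_F peak on chromosome 10 from 92375674 to 92375949 scored 130 and was 276 bp wide, near the smallest width in the list, 259 bp. An SVA_A peak on chromosome 5 from 50607540 to 50608645 scored 126 and had PARP8, of the ADP-ribosyltransferase family, as its nearest gene. All 4 lay 42850 bp or more from the nearest TSS.

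The other 6 of the 10 highest were SVA_D and SVA_B peaks. An SVA_D peak in intron 8 of CNBD2, a cyclic nucleotide-binding protein gene, had a score of 120, and it lay on chromosome 20 from 36001426 to 36002212. ABLIM1, which encodes an actin-binding LIM protein, was the nearest gene of an SVA_D peak with a score of 109. The highest SVA_B peaks had scores of 104, next to the noncoding RNA gene LOC101929536, 101 in intron 2 of TEC, a Tec family kinase gene, and 100 in intron 2 of KIAA0232. Of these 10 peaks, 4 were intronic and 6 intergenic.

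The highest peaks of SVA_C and SVA_E were lower than those of the other subfamilies. SVA_C reached 98 in intron 18 of STRIP2, which encodes a STRIPAK complex component, and 92 near HSPB3, a small heat shock protein gene. SVA_F had, after its peak of 130, a score of 95 in intron 2 of OSBPL9, an oxysterol-binding protein relative. SVA_A had, after its peak of 126, a score of 94 in intron 5 of ZNF292, which encodes a zinc-finger protein, and 1 other SVA_A peak shared that score. SVA_E reached 72 near the microRNA gene MIR4648 and 66 in intron 3 of CCDC126. None of the 24 SVA_E peaks reached the 90th percentile of score over the list (interval up to 14.2%). It was reached by 6 of 75 SVA_A, 6 of 125 SVA_B, 4 of 90 SVA_C, 5 of 313 SVA_D and 4 of 70 SVA_F peaks. Over all SVA peaks this was 25 of 697 (3.59%, interval 2.33 to 5.25%), against 10.1% of all peaks, 5.32% of the other intron and intergenic peaks and 2.49% of the other repeat-named peaks.

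SVA peaks were wider than most peaks outside promoters and exons. Their median width was 490 bp (interval 472 to 515 bp), with quartiles of 364 and 680 bp, against 405 bp (interval 403 to 407 bp) in the other intron and intergenic peaks. By subfamily the median width was 473 bp in SVA_A, 513 bp in SVA_B, 519 bp in SVA_C, 506 bp in SVA_D, 437 bp in SVA_E and 412 bp in SVA_F, and the interval of SVA_F, 346 to 538 bp, took in the medians of all the others. The widest SVA peak, an SVA_A peak in intron 7 of PDZD2, a PDZ domain protein gene, spanned 2197 bp on chromosome 5 from 32039111 to 32041307 with a score of 47. An SVA_F peak of 1593 bp lay on chromosome X from 71675273 to 71676865 and scored 68, and an SVA_D peak of 1420 bp on chromosome 20 near EIF2S2, the gene of the beta subunit of initiation factor eIF2, had a score of 38. A width of 1000 bp or more was rarer in SVA peaks than in the other intron and intergenic peaks (33 of 697, 4.73%, interval 3.28 to 6.59%, against 7.39%). Width and score went together across the 697 SVA peaks with a Spearman rho of 0.42 and across the other intron and intergenic peaks with 0.38, as a description of peaks from the same merged libraries.

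SVA peaks lay away from transcription start sites, as repeat-named peaks in general did. Only 1 of the 697 was centred within 1000 bp of a TSS, against 20.0% of all peaks and 5.32% of the other intron and intergenic peaks. The naming of repeats outside promoters alone keeps this number low, and it was 0.744% in the other repeat-named peaks, 0.364% in LTR12, 0.309% in young L1 and 0.693% in Alu peaks. That SVA_F peak, on chromosome 12 from 9952083 to 9952680, scored 60 and lay in intron 1 of CLEC12A-AS1 and 956 bp from its TSS. CLEC12A-AS1 is an antisense RNA gene of CLEC12A, a myeloid lectin gene. The median distance to the nearest TSS was 29421 bp (quartiles 13680 and 58851 bp), and 573 SVA peaks (82.2%, interval 79.2 to 85.0%) lay over 10000 bp away. This share was 58.1% over all peaks, 71.9% over the other intron and intergenic peaks and 83.5% over the other repeat-named peaks. By this share SVA peaks matched the other repeats, while their median distance was shorter than the 43188 bp of the other repeat-named peaks (interval 41940 to 44454 bp).

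Very long distances were less frequent in SVA peaks than in LTR12 and young L1 peaks, but not than in Alu peaks. Distances over 100000 bp were found for 107 SVA peaks (15.4%, interval 12.8 to 18.2%), against 13.1% of all peaks, 17.2% of the other intron and intergenic peaks and 28.3% of the other repeat-named peaks. They were found for 35.2% of LTR12 peaks (interval 32.4 to 38.1%), 39.9% of young L1 peaks (interval 37.8 to 42.2%) and 14.8% of Alu peaks (interval 12.8 to 17.0%). Distances over 10000 bp were found for 83.7% of LTR12, 94.0% of young L1 and 74.1% of Alu peaks, so by this share SVA peaks lay closest to LTR12. Among the subfamilies the share over 10000 bp was 85.3% in SVA_A, 77.6% in SVA_B, 87.8% in SVA_C, 83.7% in SVA_D, 87.5% in SVA_E and 71.4% in SVA_F (interval 59.4 to 81.6%). SVA_F was lowest, with an interval that met those of the others.

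Introns held 342 SVA peaks (49.1%, interval 45.3 to 52.8%) and intergenic DNA 355. The intron share was 39.6% over all peaks, 53.2% over the other intron and intergenic peaks and 39.9% over the other repeat-named peaks. It was 25% in LTR12 peaks (interval 22.5 to 27.7%), 34.2% in young L1 peaks (interval 32.1 to 36.4%) and 51.5% in Alu peaks (interval 48.5 to 54.4%). By intron share SVA peaks thus lay nearer to Alu peaks than to LTR12 or young L1 peaks. By the upper score quartile and the median score they lay nearer to LTR12 peaks. The upper score quartile held 23.2% of SVA peaks, 30.4% of LTR12, 11.5% of young L1 and 7.89% of Alu peaks. The median scores were 36 in SVA, 37 in LTR12, 31 in young L1 and 26 in Alu peaks, and the median widths 490, 449, 404 and 323 bp. At high scores SVA peaks lay nearer to Alu peaks. The 90th percentile of score was reached by 3.59% of SVA, 6.09% of LTR12, 1.75% of young L1 and 1.99% of Alu peaks. For a score of 100 or more the shares were 1.43%, 2.91%, 0.567% and 1.21%. Within the subfamilies the intron share ran from 43.3% in SVA_C to 51.2% in SVA_B, and all 6 intervals overlapped.

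**Figure D3:**
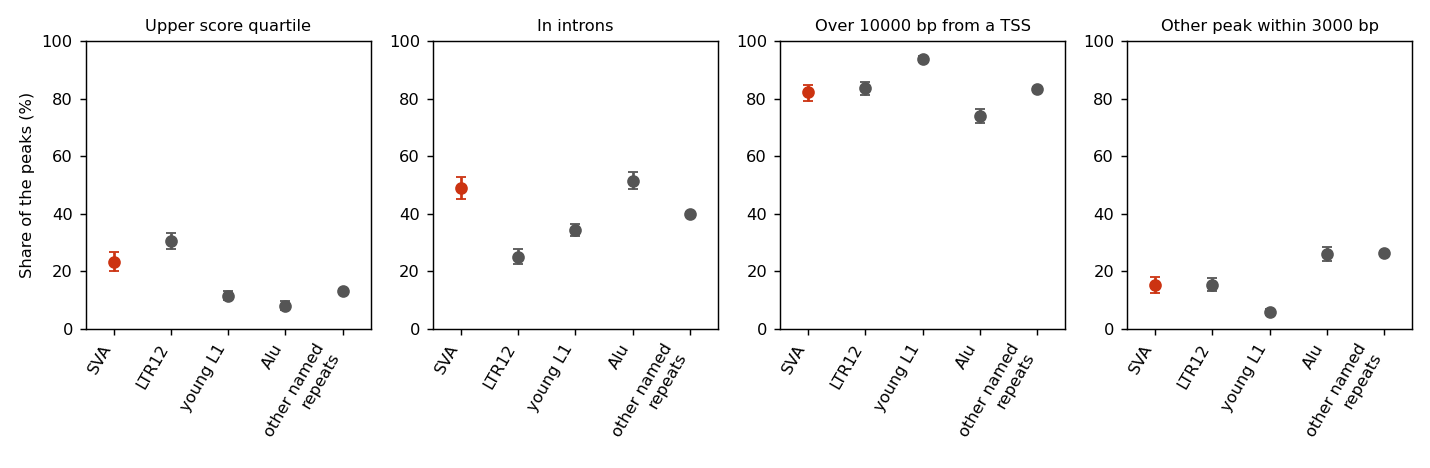
Share (%) of SVA (red), LTR12, young L1, Alu and all other repeat-named peaks in the upper score quartile, in introns, over 10000 bp from a TSS and with another peak centred within 3000 bp; bars are exact 95% intervals, and the last group includes the 3 before it. SVA lies nearest LTR12 in the first panel (23.2% and 30.4%) and in the last (15.1% and 15.4%), and nearest Alu in the second (49.1% and 51.5%).

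The 342 intronic SVA peaks lay in 311 genes, of which 26 held 2 or more and 4 held 3 or more. The gene whose intron held a peak was not the one with the nearest TSS for 121 of the 342. WDR70, a WD repeat protein gene on chromosome 5, held 4 of them over 148100 bp. Its SVA_A peak in intron 9 had a score of 90, and its SVA_D peaks in introns 5, 8 and 9 had scores of 62, 53 and 58. All 4 were above 49, the upper quartile of the list, while the other peaks with WDR70 as the nearest gene had a median score of 37. SCFD2, a Sec1 family gene, held 3 SVA peaks with scores of 22, 26 and 41 among 18 intronic peaks. UBR1, a ubiquitin ligase of the N-degron pathway, held SVA_B, SVA_D and SVA_E peaks with scores of 32, 29 and 42. ZSWIM5 held SVA_D, SVA_A and SVA_B peaks with scores of 21, 26 and 56. Outside introns, LHFPL4, a gene of inhibitory synapses, was the nearest gene of SVA_D, SVA_C and SVA_A peaks with scores of 47, 48 and 16. NNT-AS1 was the nearest gene of 3 SVA_B peaks with scores of 49, 46 and 26, of which the first lay in intron 17 of NNT, the gene of a mitochondrial transhydrogenase. LINC01474 was the nearest gene of 3, with scores of 36, 42 and 75, of which the first lay in intron 18 of TMC1, the gene of a hair cell channel.

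SVA peaks had few close neighbours. Another peak was centred within 3000 bp of 105 SVA peaks (15.1%, interval 12.5 to 17.9%), against 40.0% of all peaks, 40.6% of the other intron and intergenic peaks and 26.3% of the other repeat-named peaks. LTR12 peaks had 15.4%, young L1 peaks 5.88% and Alu peaks 25.9%. With only the peaks at or above the median score, which leaves fewer peaks to be neighbours, the SVA share was 8.68%. The median distance to the nearest other peak was 13034 bp for SVA peaks, against 4301.5 bp for the other intron and intergenic peaks. Where the nearest peak lay within 3000 bp, it was another SVA peak for 32 of 105, an intergenic or intronic peak with no repeat named for 18 and 17, an LTR peak for 11 and a promoter peak for 5. Most SVA peaks thus had no other peak within 3000 bp. Within 10000 bp, 42.6% of them had one, against 69.5% of the other intron and intergenic peaks. That share was 40.9% for LTR12, 25.7% for young L1 and 58.1% for Alu peaks.

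A few SVA peaks lay beside another SVA peak. Of the 697 peaks, 33 (4.73%) fell into 16 clusters of SVA peaks centred within 3000 bp of the next, 15 of 2 peaks and 1 of 3. The share of peaks in such clusters of their own group was 5.27% for LTR12, 2.47% for young L1 and 2.69% for Alu peaks, so it was about the same for SVA and LTR12. In 16 of the 17 neighbouring pairs both peaks had the same subfamily name. In 10 pairs the uncovered stretch between the peaks was 272 to 401 bp, and in the other 7 it was 605 to 2147 bp. The smallest such gap in the whole list was 262 bp, and gaps under 500 bp made up 22.8% of all 17574 gaps between neighbouring peaks centred within 3000 bp. The pair near BRINP3 had equal scores of 84 with a gap of 280 bp. The pair near OSMR, the oncostatin M receptor gene, had scores of 22 and 48 with a gap of 275 bp, and the pair near IDS, a lysosomal sulfatase gene, had 31 and 27 with a gap of 357 bp. The cluster of 3 consisted of SVA_A peaks with scores of 14, 26 and 47 between 93761018 and 93764827 on chromosome 3, 209663 bp or more from the TSS of PROS1, the anticoagulant protein S gene. The pair with unlike names, SVA_C with a score of 60 and SVA_D with 23, lay in intron 4 of the ubiquitin ligase gene RNF115.

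**Figure D4:**
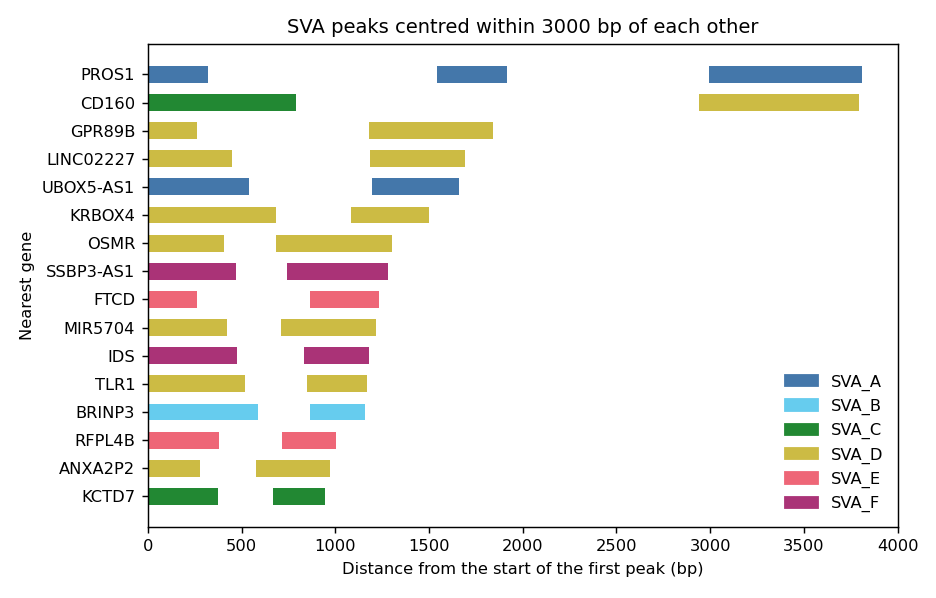
The 16 clusters of SVA peaks centred within 3000 bp of each other, each peak drawn as a bar at its distance (bp) from the start of the first and coloured by subfamily, with the nearest gene of the first peak. Most pairs carry 1 colour and a gap of 272 to 401 bp.

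SVA peaks were found on 23 of the 24 chromosomes in the list, and their share of the intron and intergenic peaks was highest on chromosome X. There, 54 of 1790 intron and intergenic peaks were SVA peaks (3.02%, interval 2.27 to 3.92%), against 1.36% over all chromosomes. By subfamily these were 23 SVA_D, 15 SVA_B, 6 SVA_C, 5 SVA_F, 3 SVA_A and 2 SVA_E peaks. Chromosomes 6 and 3 followed with 2.23% (34 of 1523, interval 1.55 to 3.11%) and 2.18% (45 of 2063, interval 1.60 to 2.91%). Chromosome 19 had 0.576% (8 of 1390, interval 0.249 to 1.13%) and chromosome 8 had 0.789% (30 of 3802, interval 0.533 to 1.12%). The high share on chromosome X was not particular to SVA peaks. Young L1 peaks made up 209 of the 1790 peaks there, 137 of the 1523 on chromosome 6 and 141 of the 2063 on chromosome 3. Over all chromosomes they made up 1940 of 51386. LTR12 peaks made up 35 of the 1790 on chromosome X, against 1100 of 51386 over all. Chromosome Y had 22 intron and intergenic peaks, of which 0 were SVA (interval up to 15.4%), too few to read as an absence. Among repeat-named peaks alone the order was another. There the SVA share was highest on chromosome 17 (13 of 192, 6.77%), followed by chromosome 14 (22 of 341, 6.45%) and chromosome X (54 of 873, 6.19%), against 4.08% over all. It was 3.15% on chromosome 19, 2.20% on chromosome 8 and 1.72% (3 of 174) on chromosome 18, the lowest with an SVA peak. Intervals were not computed for these shares, and several rest on few peaks, so their order is a description only. The number of SVA copies on each chromosome and the copy number of each chromosome in these cells were not used, so the shares compare peaks with peaks.

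**Figure D5:**
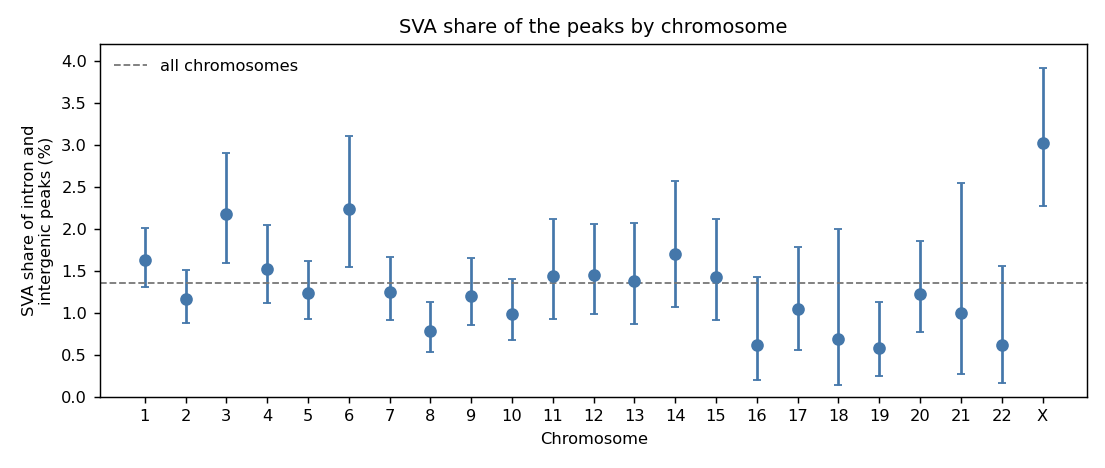
SVA share (%) of the intron and intergenic peaks of chromosomes 1 to 22 and X, with exact 95% intervals, and the share over all chromosomes (dashed line); chromosome Y, with 22 such peaks, is not drawn. Of those drawn, chromosome X stands highest at 3.02% and chromosome 19 lowest at 0.576%.

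Genes known to silence SVA elements were named as nearest to a promoter peak in 9 of 13 cases, and such peaks were common among protein-coding genes. Of 13 such genes, 9 were named in the table and all 9 had a peak centred within 1000 bp of the TSS, against 78.6% of the 13948 protein-coding genes named in it. ZNF91, PPHLN1, MORC2 and ATRX were the nearest gene of no peak. A peak at their promoters that lay nearer to the TSS of another gene is not counted for them. They were therefore not shown to lack a promoter peak, and the 9 of 13 has no matching share over genes both named and unnamed. The share of genes named counts only genes that some peak lies nearest to, and 9 genes are too few to read against it. The median of the highest promoter score was 68 over the 9 genes and 63 over all protein-coding genes with a promoter peak.

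The corepressor TRIM28 had the highest score, 198, with a peak on chromosome 19 in the 5' UTR, 546 bp from the TSS. SETDB1, the histone methyltransferase that TRIM28 recruits, had 173, and its partner ATF7IP had 135. UHRF1 and DNMT1, which maintain DNA methylation, had 83 and 61. TASOR and MPHOSPH8, subunits of the HUSH silencing complex, had 68 and 48. ZNF611, a KRAB zinc-finger protein that binds SVA, had 48, as had DAXX, a histone chaperone found in PML bodies. Of these genes, 2 were also the nearest gene of an SVA peak, among 637 genes that were. The share of all genes with an SVA peak was not computed, so no excess can be read from these 2. ZNF611 had an SVA_A peak in its intron 3, on chromosome 19 from 52721031 to 52721507, which scored 35. ATF7IP had an SVA_C peak that scored 55, on chromosome 12 from 14354575 to 14354916, between genes and 10887 bp from its TSS.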

How the data were processed

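PML ChIP and input DNA of MDA-MB-231 cells were sequenced, and the duplicates were merged by the authors, per the labels. Tools named in the submitters' processing notes, without settings, are HOMER 4.11.1, MACS2 2.1.1.20160309, Picard 2.0.1, BWA 0.7.12 and Trimmomatic 0.36, with the build hg38. Settings for reads with several genomic placements were not given in the sources used here. Each peak has a score, a whole number deposited by the authors, and positions and distances are deposited in bp. Depth is unknown.

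SVA peaks, shares with exact Clopper-Pearson 95% intervals, medians with binomial order-statistic 95% intervals and distances between peak centres were computed with Python 3.11.15, pandas 2.3.3, numpy 2.4.6 and scipy 1.17.1, and checked on simulated data. Host genes came from the transcript in the annotation, by the table's own names for 220 intronic SVA peaks and by RefSeq GRCh38.p14 for 122. Named peaks were the 10 highest-scoring, the 2 highest of each subfamily, those within 1000 bp of a TSS, those of genes nearest to 3 or more SVA peaks and the 3 widest; 1 of these is not reported here. Genes holding 3 SVA peaks in introns, and the pairs, were named after their values were seen. The members and lists were chosen with earlier results of these data known. Alternatives covered the peaks kept, clusters, chromosomes, the TSS window, the neighbour distance and the score limit. No sequence is printed, because no genome of the build was used.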

Additional observations from a re-analysis of the deposited data

How the results depend on the processing

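Of 46 values recomputed over 15 results, 36 stayed within the 95% interval of the reported value, among them all those for the subfamily shares, the intron and intergenic shares and the share over 10000 bp from a TSS. Some of the 36 could move little or not at all. Keeping chromosomes 1 to 22 and X, or only the intron and intergenic classes, left all 697 SVA peaks in place. A wider match of the SVA name also gave the same 697. With only peaks at or above the median score of 34, the median SVA score was 48, the share in the upper quartile 42.6%, the median width 580 bp and the share with a neighbour within 3000 bp 8.68%. The first 2 follow from keeping higher scores and the last from keeping fewer peaks. The upper quartile then held 162 of 380 SVA peaks (interval 37.6 to 47.8%) and 9538 of 22766 other intron and intergenic peaks. For the other repeat-named peaks it held 2173 of 6375, and for all peaks 17547 of 35045. At this setting the SVA share was thus near that of the other intron and intergenic peaks, and its interval took that in. With 1 peak per cluster, 10.9% had a neighbour within 3000 bp. A neighbour lay within 1000 bp of 4.02% and within 10000 bp of 42.6%. The share within 500 bp of a TSS was 0 (interval up to 0.528%) and within 5000 bp 7.32%. The 90th percentile of score over all peaks was reached by 3.59% of SVA peaks and 10.1% of all peaks. Restricting the background to intron and intergenic peaks was chosen after seeing the data. No paired analysis was possible because the authors merged the duplicates into 1 list.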

Other observations

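Intronic SVA peaks lay in long genes, as other repeat peaks did. The median RefSeq length of the host genes was 112257 bp for SVA peaks (301 of 311 genes with a length), against 85678 bp for other repeat-named peaks and 43514 bp for all other intronic peaks. First introns held 94 of 342 intronic SVA peaks (27.5%, exact 95% interval 22.8 to 32.5%), against 28.8% of other repeat-named and 33.8% of all other intronic peaks. The nearest gene was protein-coding for 74.6% of SVA peaks (interval 71.2 to 77.8%), against 68.0% of the other intron and intergenic peaks, and a noncoding RNA gene for 19.9% against 28.0%. Alu peaks were close to SVA peaks, with 73.8% and 21.1%, and all peaks had 72.0% and 24.2%. LTR12 peaks had 64.4% and 31.5%, and young L1 peaks 62.5% and 32.9%.

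The number of SVA peaks varied along the chromosomes, as did the number of peaks of any kind. Of 312 bins of 10 Mb with an intron or intergenic peak, 106 had no SVA peak and the median was 1. The bins with none held a median of 35.5 intron and intergenic peaks, against 153.5 in the 206 with an SVA peak, and the spread was not tested against chance. The most, 15 of 363 such peaks, lay on chromosome 20 from 30 to 40 Mb, followed by chromosome X from 70 to 80 Mb with 12 of 157 (7.64%) and chromosome 1 from 150 to 160 Mb with 12 of 464. On chromosome 5 from 40 to 50 Mb there were 8 of 82 (9.76%). LTR5 elements, the HERV-K repeats related to the SINE-R part, were named for 40 peaks, with a median score of 31 and a median width of 376.5 bp, and were looked at after seeing the data.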
